A study of Mus musculus with 2 samples.

Results

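General capillary endothelial cells of the mouse lung, the capillary cells that carry Kit and the apelin receptor, were described in 2 single-cell RNA libraries, 1 labelled KO and 1 labelled WT. Members were chosen by their own transcripts: a barcode needed 500 genes or more, a mitochondrial share of UMIs (unique molecular identifiers, each standing for 1 captured transcript) of 10% or less, and at least 2 of the 5 capillary markers Kit, Aplnr, Plvap, Cd93 and Sema3c. It also needed at least 3 of 6 endothelial genes, Pecam1, Cdh5, Cldn5, Egfl7, Ramp2 and Calcrl. Cells with UMIs of Esm1 were left out, and so were cells with more than 1 detected gene from any of 4 lists that mark aerocytes, arterial, venous and tip-like cells. This rule took 157 of 1326 kept KO cells and 650 of 2745 kept WT cells, which is 807 of 4071 in all.

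The lung alveolus has a pair of capillary cell types. Aerocytes are large, thin cells specialised for gas exchange, and general capillary cells are smaller, regulate vascular tone, present antigen and act as the progenitors that renew both types after injury. Alveolar type 2 (AT2) cells, the epithelial cells that make surfactant, lie next to them. Hereditary hemorrhagic telangiectasia type 2 is an inherited disorder of arteriovenous malformations caused by mutations of ACVRL1, an endothelial receptor for bone morphogenetic proteins (BMPs) that signals through SMAD transcription factors.

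Both libraries came from lungs of C57BL/6J mice aged 10 to 12 weeks, KO mice of a model of this disorder and WT mice. In both groups the tissue was digested with dispase (1 hour) and DNase (30 minutes), and VE-cadherin+ CD45- cells were sorted. The labels name neither the disrupted gene nor a Cre driver, and they give no number of animals per library, so the libraries are also the only samples and no difference has a replicate check. All intervals below are exact 95% intervals that cover counting error only. Typing by Xist and Y-linked UMIs put 92 KO members on the Y-linked side and 3 on the Xist side, against 0 and 567 WT members, so sex and group cannot be told apart.

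The KO matrix held 2196 barcodes and 17864581 UMIs, and the WT matrix 3482 barcodes and 25667220 UMIs. The mitochondrial limit left out 30.5% of KO barcodes and 15.1% of WT barcodes. The libraries shared 12 barcodes, of which 0 were members in both. Members held 748405 UMIs in KO and 2660158 in WT, with a median of 4389 UMIs and 2052 genes per KO cell and 3540.5 UMIs and 1810 genes per WT cell.

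Members made up 27.2% of KO cells with at least 3 endothelial genes (157 of 577, exact Clopper-Pearson interval 23.6 to 31.0%) and 34.6% of WT ones (650 of 1881, 32.4 to 36.8%). They made up 11.8% of all kept KO cells (10.1 to 13.7%) and 23.7% of all kept WT cells (22.1 to 25.3%). The sort, the mitochondrial limit and the number of AT2 cells in each library enter these shares. So does the sex typing of the KO library, which was mixed. Of KO cells with at least 3 endothelial genes, 83 had Xist UMIs alone and 303 Y-linked UMIs alone, against 3 and 92 of the KO members. In WT these were 1673 and 4 cells, against 567 and 0 members.

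The values that chose the members are given as a description, in CPM (counts per 1000000 summed member UMIs). Kit, the receptor of stem cell factor, stood at 645 CPM in KO members and 771 CPM in WT members. Aplnr, the apelin receptor, stood at 282 and 286 CPM, Plvap, which builds the diaphragms of endothelial caveolae and fenestrae, at 1101 and 986 CPM, Cd93 at 2678 and 2210 CPM, and Sema3c at 2133 and 1794 CPM in KO and WT members. All 5 markers were detected in 75 of 157 KO members (47.8%) and 271 of 650 WT members (41.7%), and the minimum of 2 in 15 KO members and 50 WT members.

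The rule also admitted cells rich in AT2 transcripts. At least 5% of UMIs came from 8 AT2 markers in 5 KO members and 28 WT members, a limit chosen after the values were seen. These cells held 12.4% of all KO member UMIs and 18.5% of all WT member UMIs. Their median was 26.2% AT2-marker UMIs in KO and 24.6% in WT, with 5 endothelial UMIs per cell in each library. The other 152 KO and 622 WT members had a median of 0.270% and 0.558% AT2-marker UMIs, and 74.5 and 56 endothelial UMIs. Sftpc, the surfactant protein C gene, still stood at 1769 CPM in those KO members and 3477 CPM in those WT members. Where leaving out the AT2-rich cells ends a call, turns it or moves it by over 1.5 times, this is stated below, for some genes without the values.

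**Figure D1:**
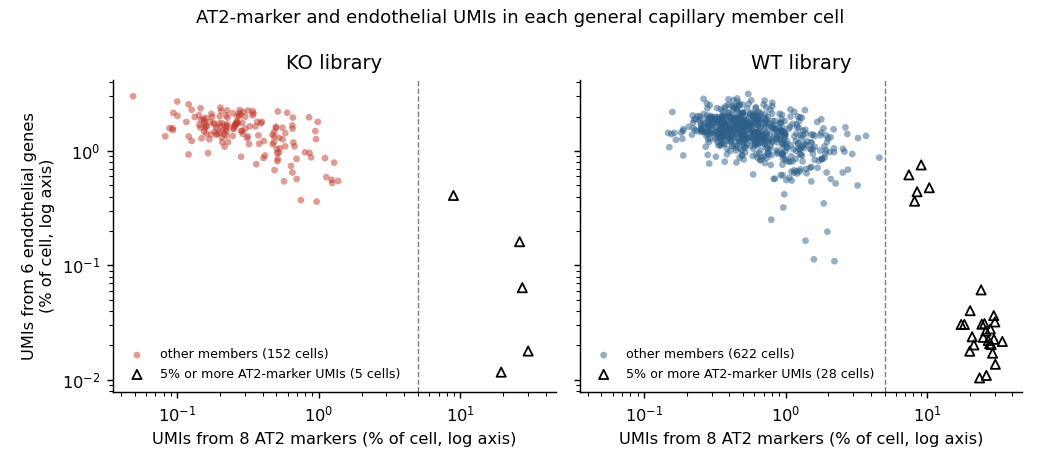
Share of each member cell's UMIs from 8 AT2 markers (x axis, %, log) and from 6 endothelial genes (y axis, %, log), KO at the left and WT at the right, with 1 point per cell. The 5 KO and 28 WT cells right of the dashed line at 5% (triangles) are the AT2-rich members, beside the other 152 KO and 622 WT members. The line falls between cells at 1.37 and 8.92% in KO and at 4.60 and 7.43% in WT. Some cells just right of it have endothelial shares like those of other members.

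Markers of further cell types were detected at lower levels than AT2 markers. Markers of alveolar type 1 cells, the flat epithelial cells of gas exchange, summed to 508 CPM in KO members and 508 CPM in WT members, and to 302 and 281 CPM without AT2-rich cells. Club cell markers summed to 129.6 CPM in KO and 166 CPM in WT, and ciliated cell markers to 97.5 and 130.1 CPM. Of 8 leukocyte markers, 1 was detected in KO members and 5 in WT members, at a summed 1.34 and 16.9 CPM, and the 2 platelet markers summed to 0 and 3.76 CPM. The 3 mesothelial markers were at 0 in both. Fibroblast markers summed to 131 CPM in KO and 193 CPM in WT, smooth muscle markers to 68.1 and 45.9 CPM, and pericyte markers to 38.7 and 33.8 CPM. Haemoglobin summed to 1924 CPM in KO members and 129 CPM in WT members, and 1 KO cell held 97.5% of the KO haemoglobin UMIs. Without that cell the KO sum was 48.4 CPM.

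The label was checked against markers that the rule did not use. Aerocyte-rule cells were 49 KO and 243 WT cells chosen with the aerocyte markers Ednrb, Fibin, Tbx2, Chst1, Car4 and Sirpa. They were also limited to at most 1 of the 5 capillary markers. Of 9 measured general capillary markers, 8 were higher in members than in aerocyte-rule cells in both libraries, where 4.54% of 8014 genes were. Both classes were thus chosen to differ in capillary markers, which limits this check. Gpihbp1, which carries lipoprotein lipase to the capillary surface, stood at 1509 CPM in KO members against 287 CPM in KO aerocyte-rule cells, and at 1274 CPM in WT members against 147 CPM in WT aerocyte-rule cells. Ptprb, the vascular endothelial phosphatase that restrains Tie2, stood at 2925 against 56.0 CPM in KO and 3096 against 79.0 CPM in WT. Hmcn1, a matrix protein gene, stood at 808 against 19.8 CPM in KO and 891 against 13.5 CPM in WT, and Wfdc1 at 128 against 3.29 CPM and 98.9 against 3.01 CPM. Scn7a, a sodium channel gene, went the other way, with 1189 CPM in KO members against 2168 CPM in KO aerocyte-rule cells and 1147 against 2539 CPM in WT. The remaining KO endothelial cells, outside members, aerocyte-rule cells and cells that failed on Esm1 alone, were compared without AT2-rich cells. WT values are not given for this comparison. These cells were rich in tip-like genes that the rule limits in members, with Peg3 at 1118 against 82.4 CPM and Igfbp3 at 692 against 16.8 CPM. With AT2-rich cells counted, 75 of 335 had Xist UMIs alone and 155 Y-linked UMIs alone. The remaining cells held 1829 CPM of Gpihbp1 against 1719 CPM in members, and 566 against 517 CPM of Cxcl12. Members held more Ptprb (3323 against 2369 CPM), Hmcn1 (923 against 447 CPM), Wfdc1, Glp1r, Hilpda and Scn7a. AT2-rule cells, 582 KO and 693 WT cells with at least 3 of 5 AT2 markers and fewer than 3 endothelial genes, held 5.22 CPM of Gpihbp1 in KO and 8.80 CPM in WT. That class was mixed, since 52 of its KO cells and 115 of its WT cells had under 5% AT2-marker UMIs and held 8404 and 5732 CPM of the fibroblast gene Col1a1. Of the lymphatic genes, Prox1 was at 0 CPM in KO members and 1.13 CPM in WT members and Mmrn1 at 0 in both, while Lyve1, a hyaluronan receptor gene, stood at 1179 and 814 CPM.

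**Figure D2:**
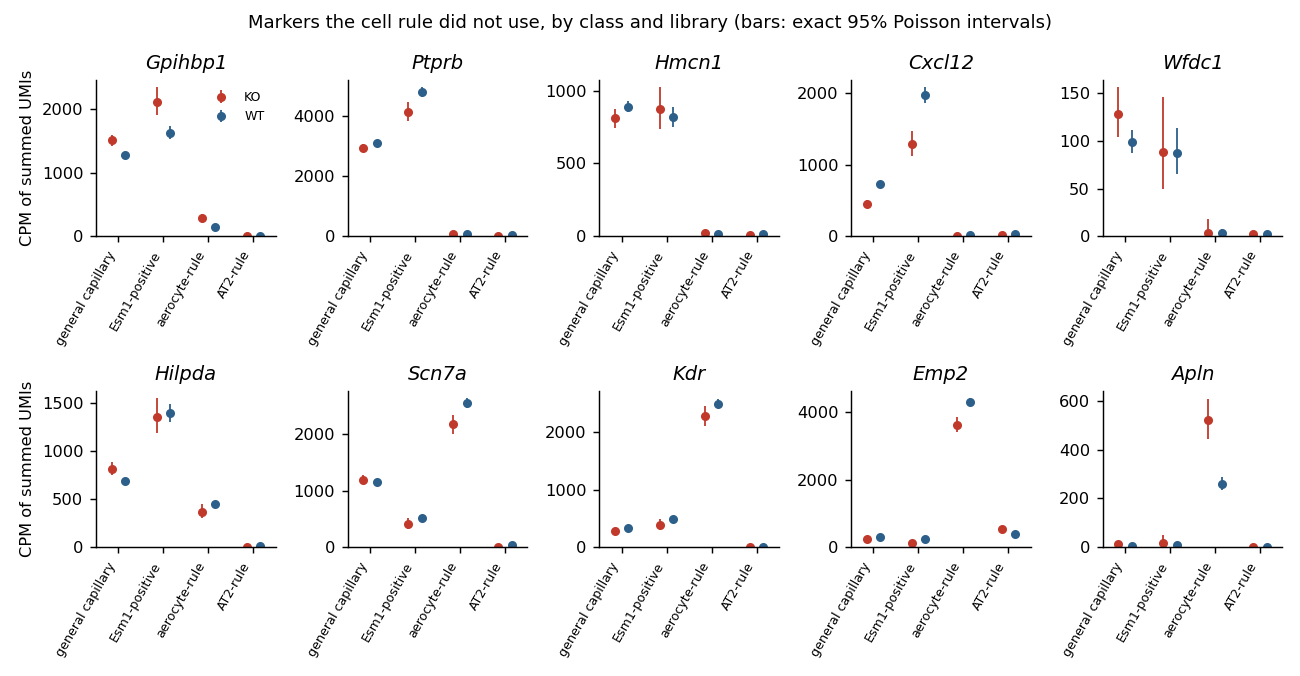
Levels (y axis, CPM of summed UMIs, from 0) of 10 genes the member rule did not use, in 4 classes of cells, KO in red left of WT in blue, with exact 95% Poisson intervals. Gpihbp1, Ptprb, Hmcn1, Cxcl12 and Wfdc1 are high in general capillary and Esm1-positive cells and low in aerocyte-rule cells, and Kdr, Emp2 and Apln are the reverse.

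Members with the minimum of 2 capillary markers were set beside the cells with 1 marker that the rule left out, without AT2-rich cells in both. Gpihbp1 stood at 1204 CPM with 2 markers and 497 CPM with 1 marker in KO, and at 678 and 272 CPM in WT. Ptprb stood at 1702 and 1052 CPM in KO and 2908 and 1009 CPM in WT, and Wfdc1 at 41.5 and 0 CPM in KO and 38.8 and 25.9 CPM in WT. Hmcn1 stood at 415 CPM with 2 markers and 672 CPM with 1 marker in KO, and at 659 and 168 CPM in WT. These sums rest on few and shallow cells. In KO, 4 of 15 cells with 2 markers and 17 of 30 with 1 marker were AT2-rich and left out. In WT these were 20 of 50 and 62 of 85. No intervals are given for these sums. The KO direction of Hmcn1 and the Wfdc1 differences therefore cannot be told from counting error.

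The KO members were then compared with the WT members over all genes. A gene was called when its CPM differed at least 1.5-fold, the exact Poisson intervals of KO and WT did not overlap and the mean of both was at least 10 CPM. Of 8488 genes measured outside the rule, 170 were called higher in KO (2%) and 232 lower (2.73%), and the median log2 ratio over all of them was 0.01. Without the AT2-rich cells, 124 of 8358 genes were called higher and 207 lower, with 110 and 153 shared with the full set. In these data, a lower level in the summed cells can come from fewer cells with the transcript or from less per cell.

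**Figure D3:**
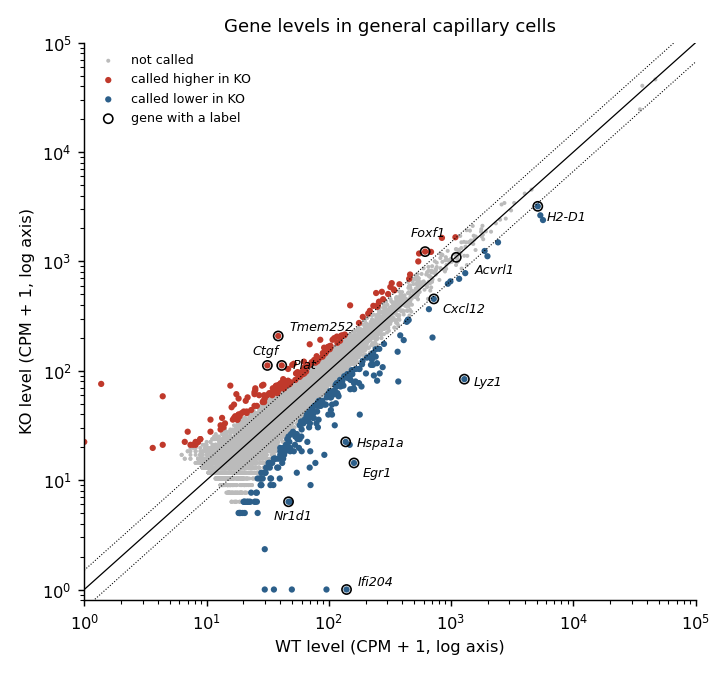
Level of each measured gene in KO members (y axis, CPM + 1, log) and WT members (x axis, CPM + 1, log), with called genes in red (higher in KO) and blue (lower in KO), labelled genes ringed, the diagonal solid and 1.5-fold dotted. Tmem252, Ctgf, Plat and Foxf1 lie above the band, Egr1, Hspa1a, Nr1d1, Lyz1, Cxcl12, H2-D1 and Ifi204 below it, and Acvrl1 on the diagonal.

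The receptor gene named with this disorder stood at close levels. Acvrl1 (chromosome 15, 101128522 to 101145336, mm10) stood at 1089 CPM in KO members (1015 to 1166) and 1102 CPM in WT members (1063 to 1143), a ratio of 0.988 (0.913 to 1.07). These libraries count the 3′ ends of transcripts and the deleted part is not given, so this level does not check the KO label. Its partner receptor Bmpr2 stood at 1880 CPM in KO and 1923 CPM in WT, and the co-receptor gene Eng at 1248 and 938 CPM; neither was called. Of 21 measured genes of BMP and TGF-beta receptors, ligands and Smads, 0 were called higher and 1 lower, near the shares over all genes (2% and 2.73%). That gene was Tgfbr3, the betaglycan co-receptor, at 56.1 CPM in KO and 95.1 CPM in WT (ratio 0.590, 0.415 to 0.820).

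Among 12 measured BMP target genes, 2 were called higher and 1 lower (2% and 2.73% over all genes), with a median log2 ratio of -0.01. Cdkn1a, the p21 cell cycle inhibitor, stood at 513 CPM in KO and 243 CPM in WT (2.11, 1.86 to 2.40). Smad6, an inhibitor of BMP signalling, stood at 542 CPM in KO and 342 CPM in WT (1.58, 1.41 to 1.78); its ratio was 1.48 without AT2-rich cells and 1.41 over the 92 Y-typed KO cells alone, and was not called in either. Id2, an inhibitor of helix-loop-helix factors, was called lower, at 93.5 CPM in KO and 200.4 CPM in WT (0.467, 0.359 to 0.5998). Tmem100, a target needed for arterial differentiation, stood at 2406 CPM in KO and 2518 CPM in WT and was not called. The list therefore held members on both sides. In the Notch list, 2 of 14 were called higher, Hes1 at 333 against 209 CPM and Notch4 at 187 against 122.5 CPM in KO against WT, and neither call held without AT2-rich cells (ratios 1.496 and 1.41) or with Y-typed KO cells alone (1.45 and 1.47).

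Transcription factors of lung capillaries held some of the larger differences. Of 23 measured, 4 were called higher in KO and 1 lower (2% and 2.73% over all genes), while the list's median log2 ratio was -0.19. Foxf1, a forkhead factor of the lung endothelium required for alveolar capillary development, had 919 UMIs in KO and 1630 in WT (chromosome 8, 121084386 to 121088144, mm10). That was 1228 CPM in KO and 613 CPM in WT, a ratio of 2.00 (1.85 to 2.17). After each cell was thinned to 1500 UMIs, 79.7% of KO members and 58.6% of WT members had a Foxf1 UMI, beside 0.904% of KO and 1.48% of WT AT2-rule cells. Fli1, an ETS factor, stood at 191 CPM in KO and 84.2 CPM in WT (2.27, 1.83 to 2.81), and Hlx, a homeobox factor, at 115 and 50.7 CPM (2.26, 1.71 to 2.99). Bcl6b stood at 74.8 CPM in KO and 44.4 CPM in WT (1.69), and was not called without AT2-rich cells (1.57). Foxp1, a forkhead repressor, was called lower, at 624 CPM in KO and 940.5 CPM in WT (0.663, 0.5997 to 0.733). Epas1, the hypoxia-inducible factor HIF-2alpha, stood at 2463 CPM in KO and 2801 CPM in WT and was not called.

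Klf4, a factor induced by laminar flow, stood at 998 CPM in KO and 538 CPM in WT (1.85, 1.69 to 2.03). Klf2, its close relative, stood at 2108 CPM in KO and 1502 CPM in WT, a ratio of 1.404 that is below the 1.5-fold limit. Of 12 measured shear-responsive genes, Klf4 was called higher and Ptgs1, the constitutive cyclooxygenase gene, lower (2% and 2.73% over all genes). Other factors among the highest ratios were Jdp2, a repressor of AP-1, at 112 CPM in KO and 49.2 CPM in WT (2.28), and Klf10, a TGF-beta-inducible factor, at 103 and 45.5 CPM (2.26).

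Matrix genes held the most calls in the higher direction of the 24 lists. The lists were chosen with earlier results of these data known, so this rank is a description and no independent support. Of 19 measured basement membrane and matrix genes, 7 were called higher in KO (2% over all genes) and 1 lower. Their median log2 ratio was 0.31 beside 0.01 over all genes. Without AT2-rich cells, 6 of 18 measured were called higher and 1 lower. Sparc, a collagen-binding matricellular protein, had 1228 UMIs in KO and 2237 in WT, or 1641 and 841 CPM (1.95, 1.82 to 2.09). In AT2-rule cells Sparc stood at 1187 CPM in KO and 727 CPM in WT, and at 603 and 314 CPM in the 530 KO and 578 WT of them with at least 5% AT2-marker UMIs; the part of that difference in the members' ratio was not tested. Adamts9, a secreted protease, stood at 174 CPM in KO and 68.8 CPM in WT (2.53, 2.00 to 3.18). Serpinh1, the collagen chaperone, stood at 353 against 216 CPM (1.63), Nid1, a basement membrane linker, at 203 against 124 CPM (1.64), and Loxl2, a collagen crosslinking oxidase, at 36.1 against 15.8 CPM (2.28), each in KO against WT. Loxl2 kept a ratio of 2.26 but was not called with Y-typed KO cells alone.

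Fn1, the fibronectin gene, stood at 54.8 CPM in KO and 17.3 CPM in WT (3.17, 2.03 to 4.93), with 78.0% of its 41 KO UMIs in 5 cells. Col4a1, a chain of collagen IV, stood at 1662 CPM in KO and 1085 CPM in WT, a ratio of 1.53 that fell below the limit without AT2-rich cells (1.45) and with Y-typed KO cells alone (1.46). Its partner chain gene Col4a2 stood at 863 and 595 CPM and was not called. The gene called lower was Sparcl1, a relative of Sparc, with 142 UMIs in KO and 1088 in WT, or 190 and 409 CPM (0.464, 0.387 to 0.553). Ctgf, a matricellular gene induced by YAP and TGF-beta, stood at 111 CPM in KO and 30.4 CPM in WT (3.64, 2.65 to 5.01; chromosome 10, 24595442 to 24598683, mm10).

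The highest ratio among genes of at least 50 CPM belonged to Tmem252, a transmembrane protein gene (chromosome 19, 24674008 to 24682233, mm10). It had 155 UMIs in KO and 100 in WT, or 207 CPM (176 to 242) and 37.6 CPM (30.6 to 45.7), a ratio of 5.51 (4.26 to 7.16). In cells thinned to 1500 UMIs it was detected in 20.98% of KO members and 5.84% of WT members, beside 0.181% of KO and 0.148% of WT AT2-rule cells. Tmem2, a cell surface hyaluronidase gene, stood at 1180 CPM in KO and 547 CPM in WT (2.16, 1.98 to 2.35). Sgk1, a kinase induced by glucocorticoids and osmotic stress, stood at 632 against 326 CPM (1.94), and Ccnd1, the cyclin D1 gene, at 162 against 90.6 CPM (1.78), in KO against WT.

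Genes of fibrinolysis and vascular tone differed in few members. Plat, the tissue plasminogen activator gene, stood at 111 CPM in KO and 40.2 CPM in WT (2.76, 2.04 to 3.71), and Plaur, the urokinase receptor gene, at 70.8 and 39.8 CPM (1.78, not called with Y-typed KO cells alone, 1.54). They were the 2 called of 10 measured coagulation genes, both higher (2% of all genes were called higher and 2.73% lower). Npr3, the clearance receptor of natriuretic peptides, stood at 526 CPM in KO and 271 CPM in WT (1.95, 1.72 to 2.20). Ddah1, which degrades an inhibitor of nitric oxide synthase, stood at 65.5 CPM in KO and 24.1 CPM in WT (2.72, 1.84 to 4.01). Ptgs1 was called lower, at 72.2 CPM in KO and 125 CPM in WT (0.576, and 0.698 with no call with Y-typed KO cells alone). These were the 3 called of 13 vascular tone genes, while Ace, the angiotensin-converting enzyme gene, stood at 1106 CPM in KO and 1124 CPM in WT and was not called. Among 17 semaphorin, plexin and ephrin genes, Epha2 and Plxna2 were called higher, at 52.1 against 19.9 CPM and 102 against 60.9 CPM; with Y-typed KO cells alone both calls ended, at ratios of 1.99 and 1.499.

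**Figure D4:**
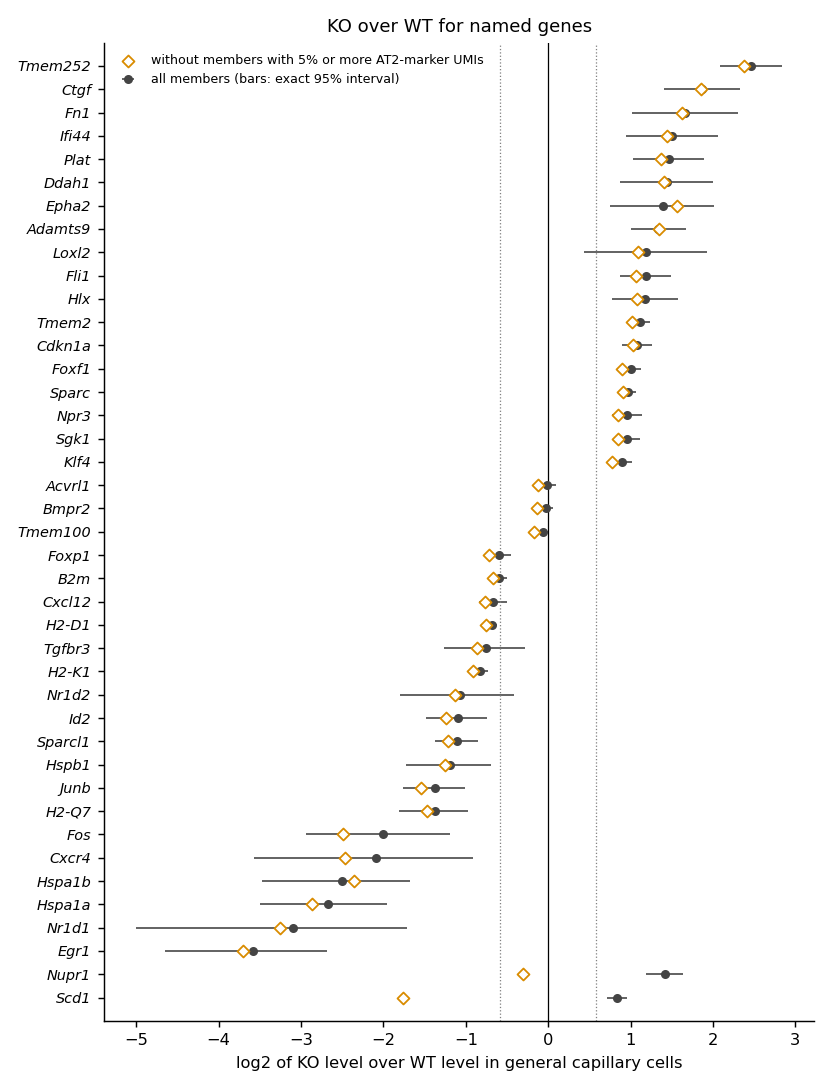
Ratio of KO over WT level in general capillary cells (x axis, log2) for 41 named genes, with exact 95% intervals (grey) and the value without the AT2-rich cells (orange diamonds); dotted lines mark 1.5-fold. The diamonds lie near the points for most genes, and those of Nupr1 and Scd1 at the bottom lie on the other side of 0.

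Antigen presentation by MHC class I held the most calls in the lower direction of the 24 lists, which were chosen with earlier results known. This rank too is a description. Of 19 measured genes, 0 were called higher in KO and 6 lower (2.73% over all genes), and the median log2 ratio was -0.39. H2-D1, a classical class I heavy chain, stood at 3189 CPM in KO and 5120 CPM in WT (0.623, 0.596 to 0.651). It was also lower in KO in AT2-rule cells, at 750 CPM in KO and 1203 CPM in WT. The part of that difference in the members' ratio was not tested. H2-K1, the other classical chain of this strain, stood at 1114 and 1984 CPM (0.562, 0.522 to 0.604), and B2m, the shared light chain, at 1244 and 1880 CPM (0.662, 0.616 to 0.710). H2-Q4 held 135 CPM in KO members and 232 CPM in WT members, H2-Q6 36.1 and 73.3 CPM, and H2-Q7 70.8 and 184 CPM. The H2-Q genes are close copies of one another, so reads that match several may not have been counted for the right gene or at all. The peptide transporter genes Tap1 and Tap2 stood at 86.9 and 112 CPM in KO and 79.7 and 109 CPM in WT, and were not called.

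Of 30 measured interferon-stimulated genes, 1 was called higher in KO and 2 lower (2% and 2.73% over all genes), and the median log2 ratio was 0.12. Ifi44 stood at 68.1 CPM in KO and 24.1 CPM in WT (2.83, 1.92 to 4.16). Ifi203, of the interferon-inducible p200 family, stood at 66.8 CPM in KO and 160 CPM in WT (0.417). Its relative Ifi204 had 0 UMIs in KO and 369 in WT, which at a floor of 3 UMIs made it at least 34.6-fold lower in KO. In aerocyte-rule cells Ifi204 was also at 0 CPM in KO, against 53.4 CPM in WT, and Ifi203 stood at 85.7 CPM in KO and 181 CPM in WT. Cxcl12, the chemokine that recruits cells through Cxcr4, was the 1 general capillary marker called, at 453 CPM in KO and 722 CPM in WT (0.628, 0.557 to 0.705). Cxcr4 itself had 6 UMIs in KO and 91 in WT, or 8.02 and 34.2 CPM (0.234, 0.0838 to 0.530).

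Immediate early genes, which cells induce within minutes of a stimulus, included some of the lowest ratios. Of 18 measured, 0 were called higher in KO and 4 lower (2% and 2.73% over all genes), with a median log2 ratio of -0.30. Egr1 had 10 UMIs in KO and 425 in WT, or 13.4 CPM (6.41 to 24.6) and 160 CPM (145 to 176), a ratio of 0.0836 (0.0398 to 0.155). Fos stood at 17.4 CPM in KO and 69.5 CPM in WT (0.2498), Junb at 89.5 and 233 CPM (0.385), and Gadd45b, a stress-induced gene, at 12.0 and 37.6 CPM (0.320). The most abundant members, Jun at 1271 CPM in KO and 1585 CPM in WT and Dusp1 at 540 and 675 CPM, were not called. In AT2-rule cells Egr1 was also lower in KO, at 58.7 CPM in KO and 119 CPM in WT, and Fos at 43.0 and 100.3 CPM. In those with at least 5% AT2-marker UMIs Egr1 stood at 34.4 CPM in KO and 67.7 CPM in WT, and Fos at 30.95 and 60.02 CPM.

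Of 22 measured heat shock chaperone genes, 0 were called higher and 3 lower (2% and 2.73% over all genes). The called genes were Hspa1a with 16 UMIs in KO and 363 in WT, Hspa1b with 12 and 242, and Hspb1 with 37 and 301. In CPM, Hspa1a stood at 21.4 in KO and 136 in WT (0.157, 0.0886 to 0.258), Hspa1b at 16.03 and 91.0 (0.176, 0.0898 to 0.314), and Hspb1, a small heat shock protein gene, at 49.4 and 113 (0.437). The constitutive chaperones Hspa8 at 1142 CPM in KO and 850 CPM in WT and Hsp90ab1 at 758 and 748 CPM were not called. Nor were the stress-inducible genes Dnajb1 at 40.1 CPM in KO and 24.8 CPM in WT, Bag3 at 72.2 and 52.6 CPM and Hsph1 at 13.4 and 13.5 CPM, and the list's median log2 ratio was 0.16. Hspa1a and Hspa1b encode the inducible HSP70, and their promoters are shown because they are near copies of each other that hold a heat shock element, the short inverted repeat bound by heat shock factors. They are given 5′ to 3′ for the 200 bases before the start (RefSeq, GRCm38.p6, minus strand), chr17:34972157-34972356 for Hspa1a and chr17:34959239-34959438 for Hspa1b, with the motif GAANNTTC in capitals:

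Hspa1a: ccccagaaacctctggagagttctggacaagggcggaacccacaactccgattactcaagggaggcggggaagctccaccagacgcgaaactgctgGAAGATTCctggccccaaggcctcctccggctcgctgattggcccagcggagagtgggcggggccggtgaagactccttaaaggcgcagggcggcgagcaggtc

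Hspa1b: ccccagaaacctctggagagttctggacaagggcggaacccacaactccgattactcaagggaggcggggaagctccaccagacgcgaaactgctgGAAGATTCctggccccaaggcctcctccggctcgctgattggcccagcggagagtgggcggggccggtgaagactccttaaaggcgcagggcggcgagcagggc

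The pair matched at 199 of 200 bases (99.5%), and each held 1 match, which begins 104 bases before the start and reads the same on both strands by its pattern. The motif was searched on both strands and occurred in 2582 of 32851 promoters of 300 bases (7.86%; 250 bases before and 50 after the start). Because the genes are near-identical too, reads that match both may not have been counted for the right gene or at all. The counts of each gene and their sum are therefore uncertain.

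Of 13 measured clock genes, 1 was called higher in KO and 2 lower (2% and 2.73% over all genes), and the median log2 ratio was -0.49. Nr1d1, the REV-ERB alpha repressor, had 4 UMIs in KO and 122 in WT, or 5.34 and 45.9 CPM (0.117, 0.0313 to 0.306), and its relative Nr1d2 21 and 157 UMIs, or 28.1 and 59.0 CPM (0.475). Per1, a core repressor of the clock, stood at 143 CPM in KO and 92.5 CPM in WT (1.55) and was not called without AT2-rich cells (1.46). Arntl, the BMAL1 activator, had a ratio of 0.242 and was called lower only without AT2-rich cells, at 4.58 CPM in KO and 18.9 CPM in WT. The time of day of sampling is not in the labels, so time and group cannot be told apart. Nr1d1 was also lower in KO in AT2-rule cells, at 19.8 CPM in KO and 57.4 CPM in WT, and at 18.8 and 52.0 CPM in those with at least 5% AT2-marker UMIs.

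Other lists had few called members, beside 2% called higher and 2.73% lower over all genes. None was called among 24 oxidative phosphorylation genes (median log2 ratio 0.04), 13 junction genes (0.20), 6 leukocyte adhesion genes (-0.10) and 6 Gimap GTPases (-0.04). Of 17 glycolysis and hypoxia genes, 1 was called, Pkm, a pyruvate kinase gene, at 56.1 CPM in KO and 103 CPM in WT (0.543). Of 16 genes of VEGF, angiopoietin and apelin signalling, Cxcr4 alone was called. Of 17 lipid genes, 1 was called lower in KO, Scarb1, the HDL receptor gene, at 100.2 CPM in KO and 156 CPM in WT (0.641). Fabp5, a fatty acid binding protein gene, stood at 408 CPM in KO and 361 CPM in WT over all members and was not called. Without AT2-rich cells its direction turned and it was called lower, at 39.7 CPM in KO and 85.8 CPM in WT (0.462). Cd36, a fatty acid translocase gene, stood at 2116 CPM in KO and 1806 CPM in WT. Of 9 cell cycle genes, Cdkn1a and Ccnd1 were called, both higher.

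**Figure D5:**
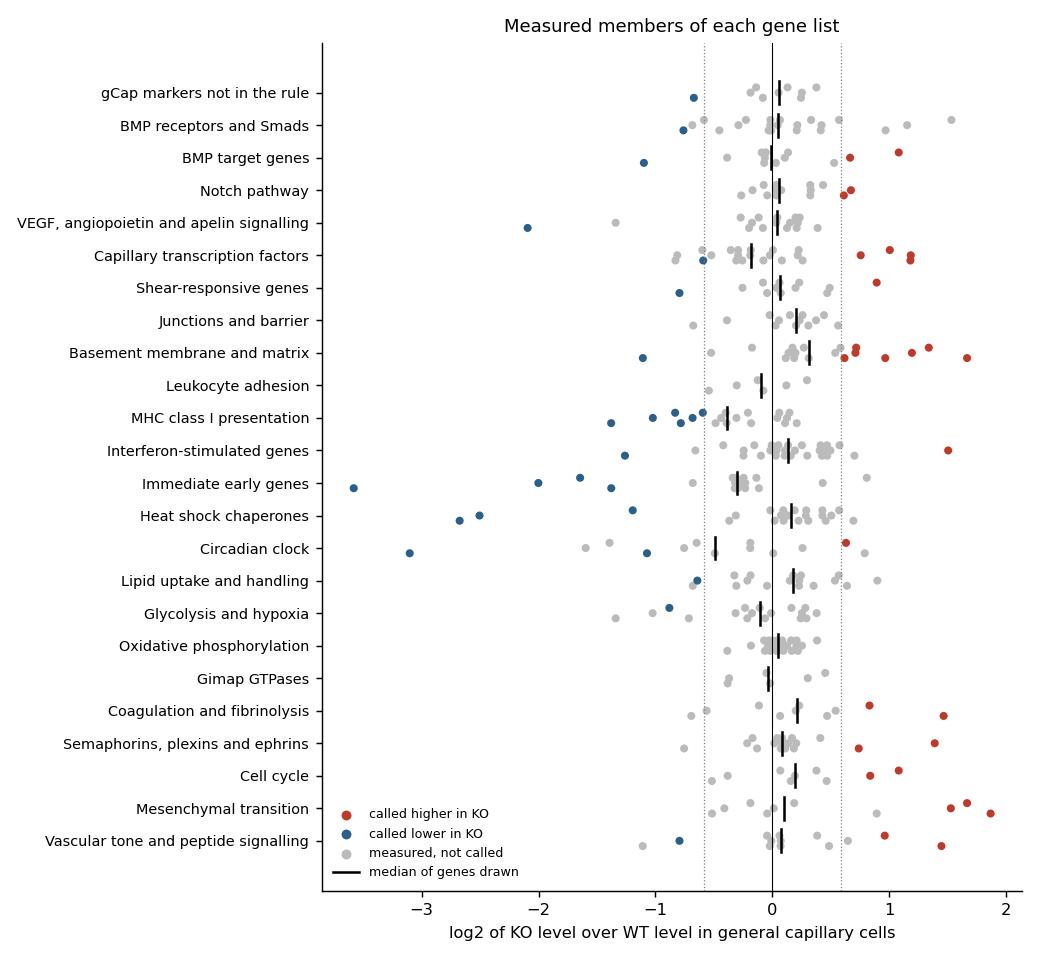
Ratio of KO over WT level (x axis, log2) for each measured member of 24 gene lists (rows), red where called higher in KO, blue where called lower and grey where not called, with a bar at the median of the genes drawn. Basement membrane genes include 7 red points and MHC class I genes 6 blue points; Ifi204, at 0 in KO, has no finite ratio and is not drawn.

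A set of named genes followed the AT2-rich cells. Scd1, a fatty acid desaturase gene, stood at 1221 CPM in KO and 684.5 CPM in WT (1.78), and at 71.7 CPM in KO and 243 CPM in WT without those cells (0.295), so the call turned. Nupr1 stood at 395.5 CPM in KO and 148.5 CPM in WT (2.66), and at 16.8 and 20.8 CPM without them (0.808, not called), with 96.3% of its KO UMIs in 5 cells. Tagln, an actin-binding gene of smooth muscle, had 17 UMIs in KO and 21 in WT (2.88) and stood at 10.7 and 9.23 CPM without them, under the limit for a call.

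Genes lower in KO that AT2 cells also express behaved in 2 ways. Npc2, Lcn2, S100a6 and H2-Aa were not called once the AT2-rich cells were left out. Lyz1 stood at 82.8 CPM in KO and 1284 CPM in WT (0.0645), Chil1 at 78.8 and 369 CPM (0.214), Cd74 at 200.4 and 704 CPM (0.285), H2-Ab1 at 20.04 and 147 CPM (0.136) and Wfdc2 at 365 and 658 CPM. These remained called lower without them, at ratios of 0.315, 0.287, 0.103, 0.177 and 0.493. Over the 92 Y-typed KO cells alone, Wfdc2 (0.799) and Npc2 (0.802) were not called. AT2-rule cells held 4935 CPM of Lyz1 in KO and 7357 CPM in WT, and 1417 CPM of Cd74 in KO and 2636 CPM in WT, and the AT2-marker sum of the other members was 2918 CPM in KO and 5895 CPM in WT. The part of those transcripts in the members' ratios was not tested.

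The named genes were then set beside the same ratios in the nearest classes of these libraries. Cells that met the whole rule but for Esm1 UMIs, 36 KO and 164 WT cells, are called Esm1-positive here. Tmem252 stood at 320 CPM in KO and 25.3 CPM in WT Esm1-positive cells, where it was called higher, and at 3.29 and 3.01 CPM in aerocyte-rule cells. Foxf1 stood at 1452 CPM in KO and 649 CPM in WT Esm1-positive cells, also called, and at 1282 and 908 CPM in aerocyte-rule cells, not called. Ctgf stood at 101 and 95.02 CPM in KO and WT Esm1-positive cells and at 152 and 30.1 CPM in KO and WT aerocyte-rule cells, where it was called higher. Klf4 was called higher in each class, with 854 CPM in KO and 483 CPM in WT Esm1-positive cells and 1278 CPM in KO and 682 CPM in WT aerocyte-rule cells. Egr1 was called lower in each, with 11.9 and 206 CPM, and 9.88 and 61.0 CPM. H2-K1 stood at 1345 CPM in KO and 1954 CPM in WT Esm1-positive cells, not called, and at 965 and 1905 CPM in aerocyte-rule cells, called lower. In KO and WT aerocyte-rule cells H2-D1 stood at 3357 and 5763 CPM and B2m at 1469 and 2460 CPM. Of the matrix genes called higher in members, Col4a1 stood there at 3284 and 1585 CPM, Sparc at 955 and 655 CPM, Serpinh1 at 702 and 391 CPM, Nid1 at 465 and 327 CPM and Adamts9 at 16.5 and 11.3 CPM. Loxl2 (13.2 and 14.3 CPM) and Fn1 (6.59 and 42.9 CPM) were not higher in KO there. The differences between classes in these ratios were not tested.

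General capillary members differed from aerocyte-rule cells in both libraries at 364 genes called higher (4.54% of 8014) and 427 lower (5.33%). Itga6, a laminin receptor subunit, stood at 609 CPM in KO members against 13.2 CPM in KO aerocyte-rule cells and at 584 against 10.5 CPM in WT. Sema3g, a secreted semaphorin gene, stood at 429 against 3.29 CPM in KO and 424 against 12.8 CPM in WT. Edn1, the gene of the vasoconstrictor endothelin, stood at 295 against 3.29 CPM in KO and 305 against 10.5 CPM in WT, and Npr3 at 526 against 3.29 CPM and 271 against 13.5 CPM. Abcb1a, a drug efflux pump gene, had 118 UMIs in KO members and 0 in KO aerocyte-rule cells, at least 15.95-fold higher, and stood at 147 against 6.02 CPM in WT. Cxcl12 had 339 UMIs in KO members and 0 in KO aerocyte-rule cells, at least 45.8-fold higher.

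In the other direction, Igfbp7, a secreted vascular protein gene, stood at 555 CPM in KO members against 8368 CPM in KO aerocyte-rule cells and at 338 against 6926 CPM in WT. Apln, the apelin ligand gene, stood at 12.0 against 521 CPM in KO and 5.64 against 260 CPM in WT. Itgb5, an integrin subunit gene, stood at 2.67 against 316 CPM in KO and 7.14 against 299 CPM in WT. Egflam, an extracellular matrix gene, had 0 UMIs in KO members, at least 48.5-fold lower than KO aerocyte-rule cells, and stood at 3.01 against 160 CPM in WT.

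Most of these lists had members called in both directions, beside 4.54% of all genes higher and 5.33% lower. Of 13 measured Notch genes, Dll1, Jag1, Notch1 and Notch4 were called higher in general capillary members in both libraries and Mfng lower. Of 14 VEGF, angiopoietin and apelin genes, Ptprb, Tek and Vegfa were higher and Apln, Ecscr, Kdr, Nrp1 and Unc5b lower. Of 24 transcription factors, 7 were higher, Elk3, Epas1, Erg, Foxp1, Gata6, Hoxa5 and Sox17, and 3 lower, Meox1, Prdm1 and Tbx3. Of 12 BMP targets, Efnb2, Gja4, Hey1, Smad7 and Stc1 were higher and Cdkn1a lower. None of 19 MHC class I genes and none of 24 oxidative phosphorylation genes was called either way.

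Against the Esm1-positive cells, which met every other part of the members' rule, 70 genes were called higher in the members in both libraries (0.894% of 7831) and 73 lower (0.932%). These counts cannot be set against those for aerocyte-rule cells, because the classes differ in size (168714 UMIs in KO Esm1-positive cells and 303548 in KO aerocyte-rule cells) and the rule fixes much of the likeness. Without AT2-rich cells the counts were 27 and 42 of 7759. The 6 genes named among those higher, S100g, Chchd10, Cd74, Sfta2, Nupr1 and Wfdc2, were all not called without them. Slc45a4, a sugar transporter family gene, was lower in members, at 13.4 CPM against 320 CPM in KO and 15.8 against 188 CPM in WT. Ivns1abp, an actin-associated protein gene, stood at 194 against 1233 CPM in KO and 211 against 1169 CPM in WT, and Cxcr4 at 8.02 against 142 CPM and 34.2 against 169 CPM. Adgrg6, Cxcl16 and Osmr completed the 6 named, all lower in members.

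Within a library, the spread of each gene among members was set beside that of pure counting. Genes entered from a mean of 0.05 UMI per thinned cell, and at such low means the ratio of variance to mean lies near 1 even where cells differ. The median ratio therefore cannot tell whether most genes vary little among members. Over 143 KO and 582 WT members thinned to 1500 UMIs, the median ratio of variance to mean over 4375 genes was 1.05 in KO and 1.07 in WT, where 1 is the value of pure counting. Cxcl12 varied far more, with a ratio of 6.47 in KO and 6.86 in WT and UMIs in 26.6% of KO and 42.4% of WT members, beside 1.45% and 4.01% of AT2-rule cells. Lyve1 had a ratio of 6.30 in KO and 2.87 in WT, and 31 UMIs in its highest KO cell. Hpgd, which degrades prostaglandins, had 3.598 in KO and 3.36 in WT, and H2-D1 3.46 and 4.37. The nuclear transcript Malat1 had the highest smaller ratio, 20.5 in KO and 19.9 in WT. Scd1 reached 25.6 in KO and 2.999 in WT; it was not among the 10 named without AT2-rich cells, while Cxcl12 (6.45 and 6.81) and Lyve1 (6.28 and 2.81) were.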

How the data were processed

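Sorted lung cells were profiled with the 10x Genomics 3′ v3 chemistry. Deposited values are unnormalized UMI counts for each gene in each barcode; the submitters' processing notes name Cell Ranger 3.0.1 and the build mm10. Both list 27998 genes, of which 27722 were found in GENCODE M21, the source of coordinates. Counts were not rescaled by the authors as far as the values show.

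Members and gene lists were chosen with earlier results of these data known. Within each class of cells the UMIs of a library were added up and scaled to CPM, with exact Poisson intervals for levels and exact conditional binomial intervals for ratios (95%). With 1 library per group no test was run and no p-value is given. The 34 genes of the member and class rules, mitochondrial, ribosomal protein, haemoglobin, Y-linked and 6 X-linked genes were left out of calls. Where a class had no UMI, 3 counts were used as its upper limit. Scrublet through scanpy 1.11.5 marked 12 KO (0.905%) and 37 WT (1.35%) of the kept cells as doublets, among them 2 KO and 0 WT members, which were not removed. Aerocyte-rule cells needed at least 3 endothelial genes and at least 2 of 6 aerocyte markers. Thinning to 1500 UMIs left out 14 KO and 68 WT shallower members.

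Genes named were the 12 highest and 12 lowest ratios among called genes of at least 50 CPM, the 8 largest CPM differences each way, up to 4 called and 2 abundant members of each of 24 lists (478 of 484 genes in the files), and Acvrl1. Between classes they were the 10 highest and lowest against aerocyte-rule cells and 6 each against Esm1-positive cells; for variation, 10 genes. Rule genes, predicted genes and non-endothelial markers were left out of these ranks. Of the named genes, those that bear on a point are described; a gene named for a list in another part of the rule counts under both. The calling code was tested on simulated data with Python 3.11.15, NumPy 2.4.6, SciPy 1.17.1 and pandas 2.3.3. Some results are not reported here.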

Additional observations from a re-analysis of the deposited data

Results flagged for a closer look

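In 4 genes the KO over WT ratio of general capillary members was called higher while that of another class was called lower; none of these differences was tested. Fn1 had a log2 ratio of 1.66 in members, against 6.59 CPM in KO and 42.9 CPM in WT aerocyte-rule cells. Tagln had 1.52 in members, against 6.59 CPM in KO and 124 CPM in WT aerocyte-rule cells. In WT aerocyte-rule cells 1 cell held 75.4% of the Fn1 UMIs and 1 cell 81.2% of the Tagln UMIs. Smooth muscle markers, Tagln among them, summed to 56.0 CPM in KO aerocyte-rule cells (4 of 5 detected) and 516 CPM in WT ones (5 of 5), and fibroblast markers to 72.5 CPM (6 of 8) and 865 CPM (8 of 8). Of these, Acta2 stood at 29.6 CPM in KO and 282 CPM in WT, with 87.2% of the WT UMIs in 1 cell, and Col3a1 at 6.59 and 272 CPM; their part in the 2 opposite calls was not tested. Nupr1 had 1.41 in members, against 19.8 CPM in KO and 134 CPM in WT aerocyte-rule cells. Scd1 had 0.84 in members, against 59.3 CPM in KO and 560 CPM in WT aerocyte-rule cells and 41.5 CPM in KO and 238 CPM in WT Esm1-positive cells. AT2-rich cells were 1 of 49 KO and 13 of 243 WT aerocyte-rule cells. Without them Nupr1 stood at 19.8 CPM in KO and 19.3 CPM in WT aerocyte-rule cells, no longer called, and Scd1 at 59.4 and 172 CPM, still called lower. In members, for Nupr1, Scd1 and Tagln the call ended or turned without the AT2-rich cells; Fn1 stayed called, at 62.5 CPM in KO and 20.3 CPM in WT.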

How the results depend on the processing

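No paired analysis was possible because each group has 1 library. The count of 170 genes higher in KO was 88 when members had no UMI of any excluded marker (50 KO and 176 WT cells), 95 after thinning to 1500 UMIs and 65 without the 5 highest cells per gene, which moved the median of all genes to -0.24 on the log2 scale. The count of 232 lower was 90, 105 and 595 under the same settings and 379 with the mean of per-cell CPM. The member share of endothelial cells was 8.67% in KO and 9.36% in WT with no excluded marker, and 33.4% and 43.3% with Esm1-positive cells joined. The WT share was also 31.8% at 1000 genes and 5% mitochondrial UMIs, 31.9% with 3 capillary markers and 38.3% without AT2-rich cells. The counts against Esm1-positive cells were 27 and 42 without AT2-rich cells.

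Among the named genes with a call, log2 ratios changed sign in 4. Scd1 had -2.41 at 1000 genes and 5% mitochondrial UMIs, -1.85 with 3 markers, -1.53 with no excluded marker, -0.25 thinned, -0.61 as the mean of per-cell CPM, -2.64 without its 5 highest cells, -1.76 without AT2-rich cells and -1.84 without them and with Y-typed KO cells alone. Nupr1 had -1.52, -1.78, -2.40, -0.31 and -0.29 under the first, second, sixth, seventh and eighth of these. Tagln had -0.35 at 1000 genes and 5% mitochondrial UMIs and Bcl6b -0.13 with no excluded marker. The causes were not tested.

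Of 70 named genes with a call, 57 kept it without AT2-rich cells and 59 with Y-typed KO cells alone. Ratios stayed within the interval first given for all 105 genes under median-of-ratios scaling, for 103 of 105 without Scrublet calls, for 66 of 101 after thinning and for 50 of 98 with no excluded marker. With 1 library per group, differences between animals, sexes and preparations cannot be told apart from the genotype, and low counts in KO limit genes such as Nr1d1, with 4 UMIs, and Cxcr4, with 6.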

Other observations

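Some genes had 0 UMIs in 1 library's members and were singled out after their values were seen. Cxcl2, a neutrophil-attracting chemokine, had 0 UMIs in KO and 252 in WT, Il1b, a cytokine gene, 0 and 92, Nxpe4 0 and 130, and Nxpe2 0 and 77. Iqcg had 16 UMIs in KO and 0 in WT. These are bare counts from members that held 748405 UMIs in KO and 2660158 in WT. How many cells held them, and whether those were AT2-rich, is not given here.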
